A study of Mus musculus with 19 samples.

Results

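The 10 genes described here encode the isozymes at the regulated and tissue-specific steps of glucose breakdown: the hexokinases Hk1, Hk2 and Hk3, the phosphofructokinase subunits Pfkl, Pfkm and Pfkp, the pyruvate kinases Pkm and Pklr, the lactate dehydrogenase subunit Ldha, and bisphosphoglycerate mutase, Bpgm. They were chosen by gene symbol from the 20656 named genes on a custom Agilent array, and all 10 were found, on 14 probes with RefSeq accessions. Of the 3 genes with more than 1 probe, the brightest probe was used. RNA came from 7 sorted bone marrow populations of adult C57BL/6 mice aged 8 to 12 weeks, on 19 arrays, with no treatment or mutation named in the labels. Early erythroblasts (2 arrays) were Ter119+, large cells with high CD44, and late erythroblasts (3 arrays) were Ter119+, small cells with intermediate CD44. Granulocytes (3 arrays) were Gr1+. The lineage-negative, cKit-positive, Sca1-negative progenitors were divided by CD16/32 and CD34 into megakaryocyte-erythroid progenitors (MEP, low for both, 3 arrays), granulocyte-macrophage progenitors (GMP, high for both, 2 arrays) and common myeloid progenitors (CMP, high for CD34 alone, 3 arrays). LSK cells (3 arrays) were lineage-negative, cKit-positive and Sca1-positive, a population of stem and multipotent cells. The labels give neither sex nor pooling and do not say whether arrays of a cell type came from separate animals, so p-values measure the spread between these samples only.

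Glycolysis turns glucose into pyruvate and ATP, and its hexokinase, phosphofructokinase and pyruvate kinase steps each have several isozymes that differ in regulation and in the tissues that use them. A mature red cell has no mitochondria and lives on glycolysis alone, with a side path through Bpgm that makes 2,3-bisphosphoglycerate, which lowers the oxygen affinity of hemoglobin. Granulocytes also rely strongly on glycolysis, and hexokinase 3 is a typical isozyme of white blood cells.

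Levels are the log2 processed signal minus the 75th percentile of the same array, called the log2 signal below. Levels of different probes cannot be set against each other, so only changes between cell types are compared between genes. A spot was taken as measured where the scanner software flagged it as well above background. The 75th percentile of the processed signal was 50.1 to 81.3 intensity units on the 5 erythroblast arrays and 266 to 607 on the other 14, and 42.9% to 47.1% of probes were well above background on the erythroblast arrays against 49.5% to 66.3% on the others. The 9 erythroid markers summed to 13.86 to 14.29 on the log2 scale in early erythroblasts and 14.51 to 14.71 in late erythroblasts, against 6.69 to 7.26 in MEP. Such a sum adds signals before the log, so its brightest genes set it. In late erythroblasts Hbb-bt, a beta globin, averaged 13.15 and Klf1 5.02. The 12 granulocyte markers summed to 13.09 to 13.24 in granulocytes, against 11.67 to 11.86 in GMP, and all 12 were also well above background in late erythroblasts. In such bulk samples, fewer cells of a type and less RNA per cell cannot be told apart.

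All 10 genes passed limma's F test over the 7 cell types, as did 95.6% of all features tested. In early erythroblasts Bpgm was 15.6-fold above its MEP level, while Ldha was 16.5-fold, Pkm 8.14-fold and Pfkl 7.43-fold lower and Hk2 was at least 13.7-fold lower. In late erythroblasts Bpgm was another 9.04-fold higher than in early erythroblasts. On the granulocytic side, 4 of the 9 genes tested changed between granulocytes and GMP, where 66.6% of all features did, with the phosphofructokinase subunits Pfkm and Pfkl 4.48-fold and 3.27-fold lower in granulocytes. The erythroid figures are relative to the array's 75th percentile, and scaling on spike-in controls placed the median of all features at -3.45 on the log2 scale for early erythroblasts minus MEP, against 0.23 with the percentile.

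**Figure D1:**
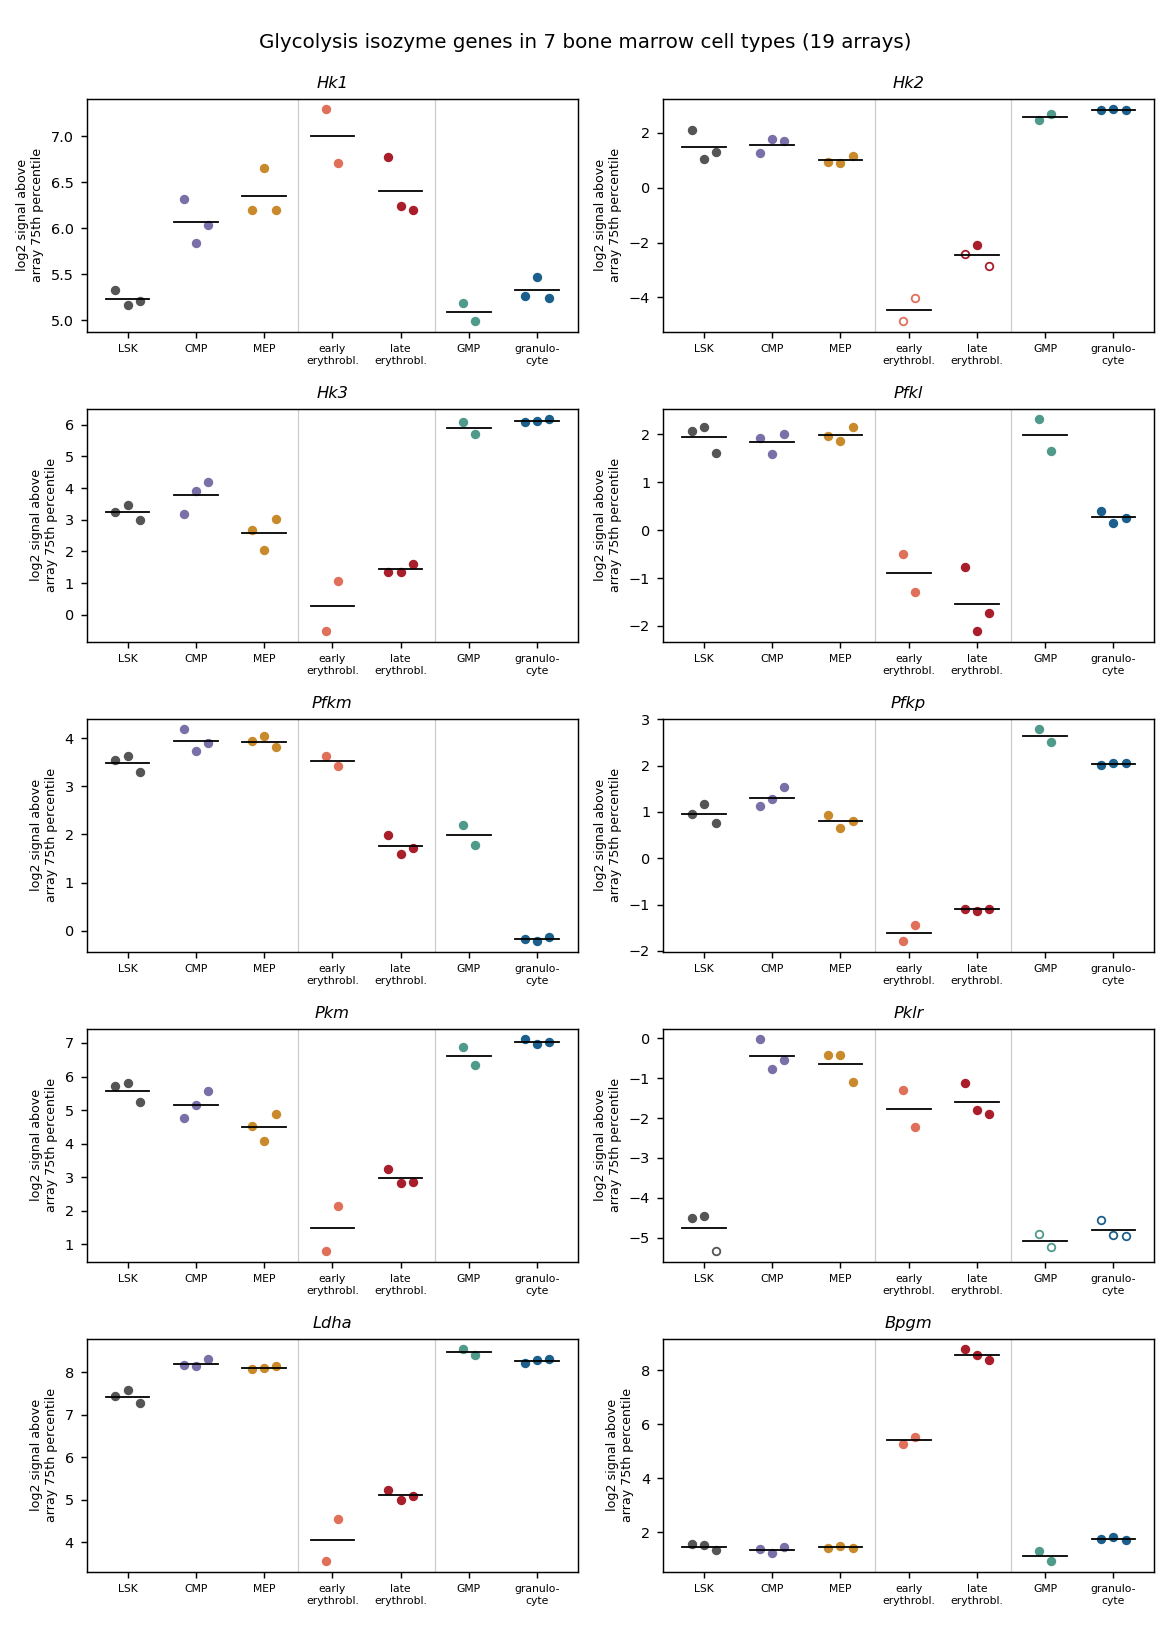
Log2 signal above the array's 75th percentile (vertical axis) of each of the 10 isozyme genes on every array, by cell type (horizontal axis). Filled points were well above background, open points were not, and bars are cell type means. Bpgm stands at 8.39 to 8.78 on the 3 late erythroblast arrays and at 1.40 to 1.49 on the 3 MEP arrays, while Pklr is open on all 5 GMP and granulocyte arrays.

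Hk1, the hexokinase isozyme that predominates in red cells and brain, had log2 signals of 5.33, 5.17 and 5.21 in LSK cells, 6.32, 5.84 and 6.04 in CMP, 6.20, 6.66 and 6.20 in MEP, 7.29 and 6.71 in early erythroblasts, and 6.78, 6.25 and 6.20 in late erythroblasts. In granulocytes it had 5.27, 5.47 and 5.24, against 5.18 and 4.99 in GMP. Every array of CMP, MEP and both erythroblast stages lay above every array of LSK cells, GMP and granulocytes. From highest to lowest mean, early erythroblasts, late erythroblasts, MEP and CMP each overlapped the next, and so did granulocytes, LSK cells and GMP. Hk1 was 0.83 ± 0.20 (SE) higher in CMP than in LSK cells on the log2 scale (limma adjusted p = 0.00366) and 1.26 ± 0.22 higher in MEP than in GMP (adjusted p = 0.000353). It was 0.65 ± 0.22 higher in early erythroblasts than in MEP (adjusted p = 0.0128), but by 0.05 on the 1 slide that held both. After normexp background correction it was -0.031 and with quantile normalization 0.078 (adjusted p = 0.725), and neither passed. It also did not pass with the authors' values, slide as a block or the compared groups alone, and was -3.03 with spike-in scaling. A second, dimmer Hk1 probe had r = 0.83 with the first over the 19 arrays, but its differences of 0.26 for CMP minus LSK and -0.23 for GMP minus CMP did not pass (adjusted p = 0.371 and 0.615).

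Hk2, the isozyme of muscle and fat that insulin regulates, went the other way. Its log2 signal was 2.10, 1.03 and 1.31 in LSK cells, 1.25, 1.77 and 1.70 in CMP, and 0.95, 0.92 and 1.15 in MEP. In early erythroblasts it read -4.86 and -4.03, not well above background on either array, and in late erythroblasts -2.42, -2.10 and -2.86, with 1 of 3 arrays well above background. Granulocytes had 2.84, 2.85 and 2.82, against 2.45 and 2.68 in GMP. No erythroblast array overlapped any other array, and GMP and granulocytes stood above the rest. Hk2 was at least 13.7-fold lower in early erythroblasts than in MEP (adjusted p = 3.2e-10) and lay below it on every array. It was 2-fold higher in GMP than in CMP (adjusted p = 0.0329), a difference that did not pass without either GMP array, CMP replicate 1 or CMP replicate 3, nor with the replicate block (0.96, adjusted p = 0.0636), quantile normalization, the authors' values or no filter. It was 2.96-fold lower in MEP than in GMP (adjusted p = 0.000953). Its difference of 0.27 between granulocytes and GMP did not pass the test (adjusted p = 0.453).

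Hk3, the white blood cell isozyme, was brightest on the granulocytic side, with 6.09, 6.12 and 6.17 in granulocytes against 6.10 and 5.70 in GMP. LSK cells had 3.26, 3.47 and 2.99, CMP 3.20, 3.92 and 4.19, MEP 2.69, 2.05 and 3.03, early erythroblasts -0.51 and 1.05, and late erythroblasts 1.35, 1.37 and 1.61. GMP and granulocytes overlapped each other and nothing else, and the 5 erythroblast arrays lay below all others. Hk3 was 4.38-fold higher in GMP than in CMP (adjusted p = 0.00108) and 9.92-fold lower in MEP than in GMP (adjusted p = 1.05e-05). It was 4.99-fold lower in early erythroblasts than in MEP (adjusted p = 5.92e-05), and 2.26-fold higher in late than in early erythroblasts (adjusted p = 0.0169). The 2 early erythroblast arrays differed by more than the 3 late ones.

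The phosphofructokinase subunits, named for liver, muscle and platelets, assemble into tetramers that carry out the committed step of glycolysis. Pfkl had 2.07, 2.16 and 1.60 in LSK cells, 1.93, 1.59 and 2.01 in CMP, and 1.97, 1.87 and 2.14 in MEP, then -0.50 and -1.29 in early erythroblasts and -0.78, -2.11 and -1.72 in late erythroblasts. Its granulocyte values were 0.40, 0.15 and 0.25, against 2.31 and 1.65 in GMP. All 4 progenitor groups overlapped, granulocytes came next, and the 2 erythroblast stages, which overlapped each other, were lowest. Pfkl was 2.89 ± 0.34 lower in early erythroblasts than in MEP (adjusted p = 1.27e-06) and 1.71 ± 0.34 lower in granulocytes than in GMP (adjusted p = 0.000389). None of the progenitor comparisons passed for Pfkl.

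Pfkm had 3.55, 3.62 and 3.29 in LSK cells, 4.18, 3.73 and 3.90 in CMP, 3.93, 4.04 and 3.81 in MEP, 3.63 and 3.42 in early erythroblasts, and 1.99, 1.58 and 1.71 in late erythroblasts. Granulocytes had -0.16, -0.21 and -0.13, against 2.20 and 1.79 in GMP. By the brightest probes it was the phosphofructokinase gene with the smallest change at the early erythroblast stage, 0.40 ± 0.17 lower than in MEP (adjusted p = 0.0412). The second Pfkp probe changed less, by 0.34. Pfkm fell at the next stage, where late erythroblasts were 3.39-fold below early ones (adjusted p = 8.26e-07). Pfkm was 3.84-fold lower in GMP than in CMP (adjusted p = 1.15e-06), 3.81-fold higher in MEP than in GMP (adjusted p = 6.32e-07), and 4.48-fold lower in granulocytes than in GMP (adjusted p = 5.29e-08). Late erythroblasts overlapped GMP, and every granulocyte array lay below every other array.

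Pfkp had 2.02, 2.06 and 2.06 in granulocytes, against 2.78 and 2.51 in GMP, where it was brightest. LSK cells, CMP and MEP ranged over 0.66 to 1.53 with overlap between neighbours. Early erythroblasts had -1.79 and -1.43 and late erythroblasts -1.09, -1.13 and -1.09. By this probe Pfkp was 2.53-fold higher in GMP than in CMP (adjusted p = 1.92e-05) and 5.3-fold lower in early erythroblasts than in MEP (adjusted p = 1.91e-09). The second Pfkp probe, dimmer but well above background on all 19 arrays, did not follow the first (r = -0.60 over the arrays). It was 0.34 higher in early erythroblasts than in MEP without passing the test, and 1.57 higher in late erythroblasts than in granulocytes, which passed, where the brighter probe gave -2.41 and -3.15, so the direction for Pfkp rests on the choice of probe.

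The pyruvate kinases catalyse the last step to pyruvate. Pkm, whose transcript is spliced into the M1 and M2 forms of most tissues and proliferating cells, had 7.11, 6.98 and 7.02 in granulocytes, against 6.89 and 6.34 in GMP. LSK cells had 5.71, 5.81 and 5.23, CMP 4.76, 5.16 and 5.56, MEP 4.54, 4.07 and 4.89, early erythroblasts 0.80 and 2.15, and late erythroblasts 3.24, 2.83 and 2.87. Apart from an overlap among LSK cells, CMP and MEP, neighbouring cell types in that order of means were separate. Pkm was 2.74-fold higher in GMP than in CMP (adjusted p = 0.0088), which did not pass with slide as a block (adjusted p = 0.0532), without the first GMP array (adjusted p = 0.121) or with the authors' values (adjusted p = 0.0579). It was 4.33-fold lower in MEP than in GMP (adjusted p = 0.000278). It was 8.14-fold lower in early erythroblasts than in MEP (adjusted p = 1.37e-06) and 2.84-fold higher in late than in early erythroblasts (adjusted p = 0.00187). One probe stands for Pkm, and it was not used to tell M1 from M2.

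Pklr encodes the pyruvate kinase of liver and red cells, the L and R forms, which begin at different first exons. It was well above background on 13 of 19 arrays. Its log2 signal was -4.51, -4.47 and -5.34 in LSK cells, with 2 of 3 arrays well above background, and -0.03, -0.77 and -0.53 in CMP. MEP had -0.43, -0.41 and -1.10, early erythroblasts -1.30 and -2.23, and late erythroblasts -1.12, -1.80 and -1.90. In granulocytes it read -4.57, -4.93 and -4.97 and in GMP -4.92 and -5.24, with no array of either well above background. On this scale CMP, MEP and the erythroblasts were thus separate from LSK cells, GMP and granulocytes on every array. The unscaled signal was 188 to 595 intensity units in CMP and MEP. It was 17.4 to 26.0 in early and 13.5 to 23.1 in late erythroblasts. Both erythroblast ranges overlapped those of LSK cells, which reached 25.1, and granulocytes, which reached 18.3. Without the percentile subtracted, the erythroblasts were therefore not separate from LSK cells or granulocytes. Pklr was 20.1-fold higher in CMP than in LSK cells (adjusted p = 1.37e-07), at least 11.8-fold lower in GMP than in CMP (adjusted p = 2.34e-07), and at least 10.3-fold higher in MEP than in GMP (adjusted p = 2.05e-07). It was 2.17-fold lower in early erythroblasts than in MEP (adjusted p = 0.00872), and the value of 0.16 for late minus early erythroblasts did not pass (adjusted p = 0.707).

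RefSeq (GRCm38.p6) lists 2 starts for Pklr. They are shown because the transcript that begins upstream is the red cell form in textbook accounts and the downstream one the liver form. The window is the 250 bases before each start, with matches to AGATAA, a motif that GATA factors bind, or to CCNCNCCC, a motif of Kruppel-like factors, on either strand in capitals. The upstream window lies at chr3:89135892-89136141 and the downstream one at chr3:89136373-89136622, both on the plus strand.
Pklr upstream start: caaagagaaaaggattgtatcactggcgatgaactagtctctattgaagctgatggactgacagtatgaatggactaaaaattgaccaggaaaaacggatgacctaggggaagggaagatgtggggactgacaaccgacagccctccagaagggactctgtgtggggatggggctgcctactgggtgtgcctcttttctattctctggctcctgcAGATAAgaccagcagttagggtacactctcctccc
Pklr downstream start: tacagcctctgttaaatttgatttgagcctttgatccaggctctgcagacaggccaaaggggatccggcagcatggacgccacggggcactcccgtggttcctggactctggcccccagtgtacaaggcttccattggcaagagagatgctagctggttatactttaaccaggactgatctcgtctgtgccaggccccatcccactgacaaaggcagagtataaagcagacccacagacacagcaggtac
The upstream window held 1 AGATAA, which begins 35 bases before the start, and no CCNCNCCC, and the downstream window held neither. AGATAA or its reverse complement was found in 9.99% of 32851 RefSeq windows of this length, CCNCNCCC in 45.9%, and both in 2.78%. A match describes the letters only, and the array cannot tell the starts apart.

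Ldha, the lactate dehydrogenase subunit that favours lactate formation, had 7.43, 7.57 and 7.27 in LSK cells, 8.16, 8.13 and 8.30 in CMP, and 8.06, 8.09 and 8.14 in MEP. Early erythroblasts had 3.57 and 4.54, and late erythroblasts 5.24, 4.99 and 5.08. Granulocytes had 8.21, 8.28 and 8.31, against 8.53 and 8.39 in GMP. The 5 erythroblast arrays lay below all 14 others, and CMP, MEP, GMP and granulocytes fell within 8.06 to 8.53. Ldha was 1.71-fold higher in CMP than in LSK cells (adjusted p = 0.00371) and 16.5-fold lower in early erythroblasts than in MEP (adjusted p = 1e-10). It was 2.07-fold higher in late than in early erythroblasts (adjusted p = 0.000385). With spike-in scaling this last difference was 0.0036 on the log2 scale and did not pass (adjusted p = 0.997). The difference of -0.20 between granulocytes and GMP did not pass (adjusted p = 0.411). Its other 2 probes followed the brightest one with r = 0.99 each.

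Bpgm had 1.55, 1.51 and 1.32 in LSK cells, 1.38, 1.22 and 1.44 in CMP, 1.40, 1.49 and 1.41 in MEP, 5.28 and 5.52 in early erythroblasts, and 8.78, 8.56 and 8.39 in late erythroblasts. Granulocytes had 1.74, 1.81 and 1.70, against 1.31 and 0.93 in GMP. The 14 arrays outside the erythroblasts ranged over 0.93 to 1.81, and neither erythroblast stage came within a log2 step of 3 of them. Bpgm was 3.96 ± 0.15 higher in early erythroblasts than in MEP (adjusted p = 4.14e-12) and 3.18 ± 0.14 higher in late than in early erythroblasts (adjusted p = 2.04e-09). It was 113-fold higher in late erythroblasts than in granulocytes (adjusted p = 4.84e-15), and 1.55-fold higher in granulocytes than in GMP (adjusted p = 0.00139). The 9 erythroid markers also differed there, summing to 9.18 to 9.29 in granulocytes, all 9 well above background, against 3.38 to 3.89 in GMP, with 7 above it. Hba-a1, an alpha globin, averaged 8.28 against 2.02 and Alas2, an erythroid heme synthesis enzyme, 2.97 against -2.72. The part of erythroid RNA in the Bpgm difference was not tested. With spike-in scaling the Bpgm difference between early erythroblasts and MEP was 0.29 and did not pass the test (adjusted p = 0.644).

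Among the members, Bpgm alone was higher in late erythroblasts than in MEP by a log2 step of more than 2, and Hk2, Pfkl, Pfkm and Ldha were lower by more than that. The 250 bases before the single Bpgm start lie at chr6:34476106-34476355 on the plus strand (RefSeq, GRCm38.p6), with matches marked in capitals as for Pklr.
Bpgm start: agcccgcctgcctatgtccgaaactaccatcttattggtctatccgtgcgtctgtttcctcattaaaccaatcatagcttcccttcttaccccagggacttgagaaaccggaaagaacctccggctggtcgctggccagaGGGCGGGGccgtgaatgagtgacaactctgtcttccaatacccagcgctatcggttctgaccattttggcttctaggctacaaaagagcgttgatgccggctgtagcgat
The window held 1 CCNCNCCC, in its reverse complement, beginning 110 bases before the start, and no AGATAA. Of the 17 starts listed for the 10 genes, 4 had an AGATAA and 9 a CCNCNCCC. The AGATAA starts were 3 of the 4 of Pfkm, of which 2 windows overlap, and the upstream start of Pklr. Hk2 and 1 of 2 Ldha starts had a CCNCNCCC, and Pfkl had neither motif.

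Across the progenitors the isozyme genes divided between the megakaryocyte-erythroid and granulocyte-macrophage branches. Relative to CMP, 7 of the 10 genes passed in GMP, 4 higher (Hk2, Hk3, Pfkp and Pkm) and 3 lower (Hk1, Pfkm and Pklr), where 18% of all features passed, 9.53% higher and 8.48% lower. Hk2 did not pass without either GMP array, Pkm without the first GMP array or Hk1 without the second. Pkm also did not pass with slide as a block, nor did Hk1 and Pfkp with their second probes, and with spike-in scaling Pfkm and Pklr alone passed. The same 7 genes passed with the opposite sign in MEP minus GMP, 3 higher and 4 lower in MEP, against 32% of all features (13.5% higher and 18.5% lower), in a comparison that shares the GMP arrays. In it Pfkp was -0.17 with its second probe and did not pass. Hk2, Pfkp and Pkm did not pass with spike-in scaling (-0.75, -1.04 and -1.30). Between MEP and CMP none of the 10 passed limma's adjusted test, against 4.52% of features (1.87% higher and 2.65% lower), and 2 had an unadjusted p below 0.05. The largest value there was -1.18 for Hk3 (adjusted p = 0.075). Between CMP and LSK cells 4 genes passed, Hk1, Pfkm, Pklr and Ldha, all higher in CMP, where 36.8% of features passed, 23.3% higher and 13.5% lower. Of these 4 genes, Pklr alone passed with quantile normalization, with spike-in scaling and with the authors' values. Pfkm also did not pass without LSK replicate 1 or 3 or CMP replicate 1 or 3.

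At the step into early erythroblasts all 10 genes passed relative to MEP, 2 higher (Hk1 and Bpgm) and 8 lower. Of all features 81.4% passed, 43.6% higher and 37.7% lower. Hk1 did not pass with quantile normalization, normexp, the authors' values, slide as a block or the compared groups alone, and was lower with spike-in scaling. By its second probe Pfkp was 0.34 higher and did not pass. The median difference of the 10 was -2.36, against 0.23 over all features tested. The 1 slide with both cell types gave each difference the same sign, with -0.998 for Hk3, -1.92 for Pkm, -3.55 for Ldha and 4.03 for Bpgm, against pooled values of -2.32, -3.02, -4.05 and 3.96. Hk1 did not pass without the first early erythroblast array, Pklr and Pfkm did not without the second, Pklr did not with normexp, and Pfkm did not when MEP replicate 1 or 2 or any granulocyte array was left out of the fit. Between late and early erythroblasts 7 of the 9 genes tested passed, 5 higher (Bpgm, Ldha, Hk3, Pkm and Pfkp) and 2 lower (Hk1 and Pfkm), where 59.8% of features passed, 22.1% higher and 37.7% lower. Both shared slides gave these 7 the same sign. By its second probe Pfkp was 0.31 higher and did not pass. The Hk1 arrays of the 2 stages overlapped, and Hk1 also did not pass without late erythroblast replicate 2 or 3, with quantile normalization, the percentile over probes detected on every array, the authors' values, no filter or the compared groups alone. Without the first early erythroblast array 3 genes passed, Pfkm, Ldha and Bpgm, and with spike-in scaling the Pfkp value was -0.54. Pkm differed there by 0.72 and 2.44 on the 2 slides and Hk3 by 0.56 and 1.87. The late minus early values of Ldha, Hk3 and Pkm were 0.0036, 0.13 and 0.46 with spike-in scaling, and none passed. Hk2 was not tested, since no group had it well above background throughout.

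Between granulocytes and GMP 4 of 9 genes passed, Bpgm higher and Pfkl, Pfkm and Pfkp lower, against 66.6% of all features (27.7% higher and 38.9% lower). No slide held both cell types, and with slide as a block, with the authors' values or without the first GMP array Pfkp did not pass. Over the 8 genes fitted in all 4 cell types, the change to late erythroblasts from MEP differed from that to granulocytes from GMP for 6, against 78.1% of all features. Between the mature ends all 10 genes passed, as did 82.4% of features (38.7% higher and 43.8% lower). Bpgm, Hk1, Pfkm and Pklr were higher in late erythroblasts than in granulocytes, by 113-fold, 2.12-fold, 3.81-fold and at least 7.87-fold, and Hk2, Hk3, Pfkl, Pfkp, Pkm and Ldha were lower. The lower genes differed by 39.2-fold for Hk2, which was well above background on 1 of 3 late erythroblast arrays, 25.7-fold for Hk3, 16.6-fold for Pkm, 8.96-fold for Ldha, 8.87-fold for Pfkp and 3.49-fold for Pfkl. By its second probe Pfkp was instead 1.57 higher in late erythroblasts (limma adjusted p = 1.48e-05). After normexp Hk1 differed by 0.16 and did not pass (adjusted p = 0.403). With spike-in scaling Hk1, Pfkm and Pklr had values of -3.18, -2.34 and -1.05, on a scale where the median of all features was -4.39. The unscaled Pklr signals of late erythroblasts, 13.5 to 23.1 intensity units, overlapped those of granulocytes, which reached 18.3. No slide held both of these cell types either.

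**Figure D2:**
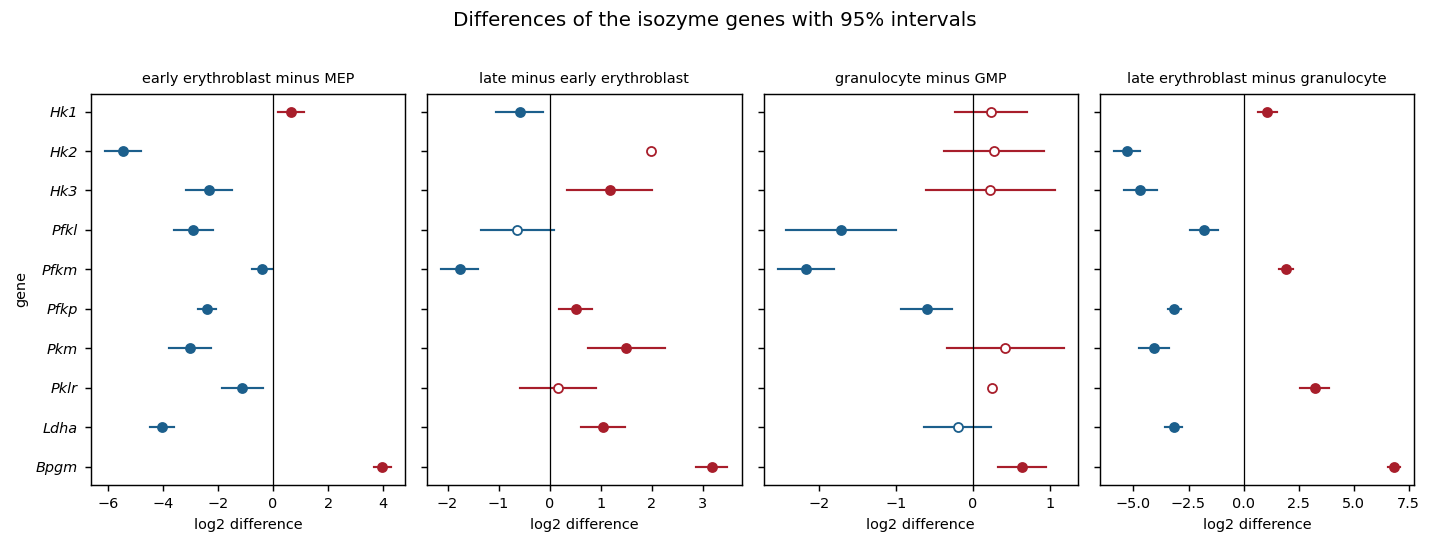
Log2 differences (horizontal axis) of the 10 genes (vertical axis) with 95% intervals in 4 comparisons, each named as the first cell type minus the second. Filled points passed limma's test, open points did not, and the 2 points with no interval, Hk2 and Pklr in 1 comparison each, were not tested. Bpgm is at 3.96, 3.18, 0.63 and 6.83 from left to right.

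Because the scaling of an array cancels between 2 genes on it, the change of one isozyme relative to another at the same step was also fitted, over 5 pairs and 4 comparisons, with intervals not adjusted for these 20. At the hexokinase step, Hk3 relative to Hk1 was 2.97 lower in early erythroblasts than in MEP (95% interval -4.15 to -1.78) and 5.77 lower in late erythroblasts than in granulocytes (-6.82 to -4.71). Hk2 relative to Hk1 was at least 21.5-fold lower in early erythroblasts than in MEP, and 6.38 lower in late erythroblasts than in granulocytes (-7.19 to -5.56), where Hk2 was well above background on 1 of the 3 late arrays. Neither pair differed detectably between granulocytes and GMP, with 0.03 for Hk2 (-0.88 to 0.94) and -0.01 for Hk3 (-1.20 to 1.17). From early to late erythroblasts both moved the other way relative to Hk1, with 1.76 for Hk3 (0.58 to 2.95) and at least 1.87-fold for Hk2, higher in late erythroblasts. Without the first early erythroblast array the Hk3 value was 0.69, with an interval that held 0.

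At the phosphofructokinase step, Pfkm relative to Pfkl was 2.49 higher in early erythroblasts than in MEP (1.78 to 3.20) and 1.12 lower in late than in early erythroblasts (-1.84 to -0.41). It was 3.73 higher in late erythroblasts than in granulocytes (3.09 to 4.37), and its value for granulocytes minus GMP, -0.45, had an interval that held 0 (-1.17 to 0.26). Pfkp relative to Pfkl was 1.11 higher in granulocytes than in GMP (0.26 to 1.96) and 1.35 lower in late erythroblasts than in granulocytes (-2.11 to -0.59), where the second difference was 3.37 by the second Pfkp probe. At the pyruvate kinase step, Pklr relative to Pkm was 1.91 higher in early erythroblasts than in MEP (0.73 to 3.09), and 1.34 lower in late than in early erythroblasts (-2.52 to -0.16). Without the first early erythroblast array these were 0.77 and -0.21, with intervals that held 0. Pklr relative to Pkm was at least 131-fold higher in late erythroblasts than in granulocytes.

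**Figure D3:**
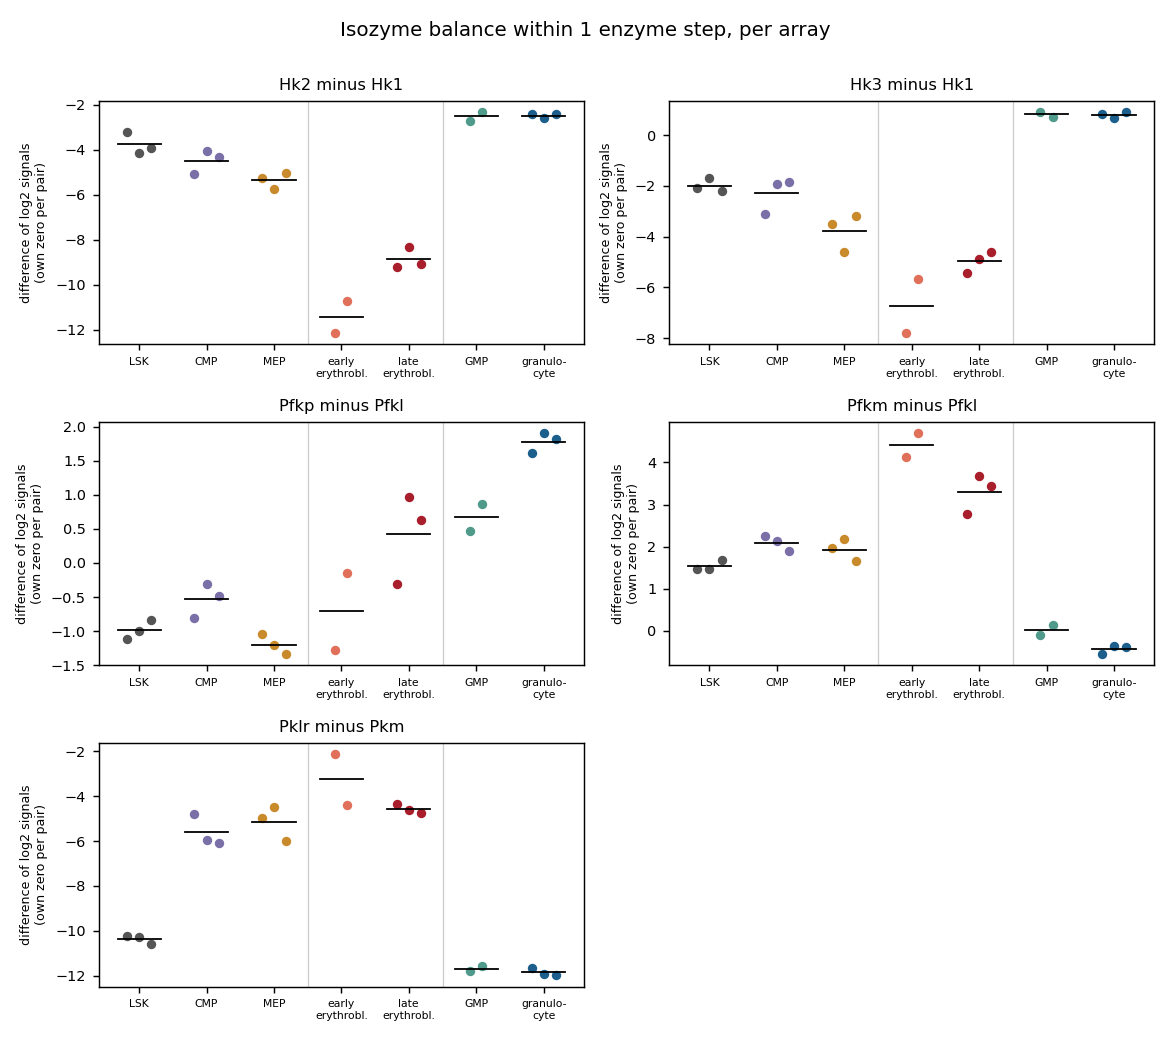
Difference between the log2 signals of 2 isozyme genes (vertical axis, whose zero is arbitrary for each pair) on every array by cell type (horizontal axis), with bars at the means. Hk3 minus Hk1 lies between 0.65 and 0.92 on all 5 granulocyte and GMP arrays and between -7.81 and -4.59 on all 5 erythroblast arrays.

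Granulocyte markers moved with several of these genes among the erythroblast arrays. The summed log2 level of the 12 markers was 9.35 and 10.93 on the first and second early erythroblast array and 11.49 to 11.64 on the late erythroblast arrays, against 8.68 to 9.17 in MEP, with 11 or 12 of the 12 well above background on each. Across those 5 erythroblast arrays Hk3, Pkm, Ldha and Pfkp were lowest on the first early array, next on the second, and higher on all 3 late ones. The 8 macrophage markers summed to 2.79 to 2.97 in early and 3.20 to 4.04 in late erythroblasts, against -0.62 to -0.16 in MEP. The part of these markers' cells in the late minus early differences of Hk3, Pkm, Ldha and Pfkp was not tested. On all 5 erythroblast arrays these genes, Pfkp by its brightest probe, lay below every MEP array, while the summed granulocyte marker level lay above it. Single markers differed in this: Mpo was 5.58 to 7.37 in early and 7.84 to 7.99 in late erythroblasts, against 7.60 to 8.53 in MEP, and Elane was 3.72 to 4.97 and 5.41 to 5.49, against 3.65 to 4.31 in MEP.

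**Figure D4:**
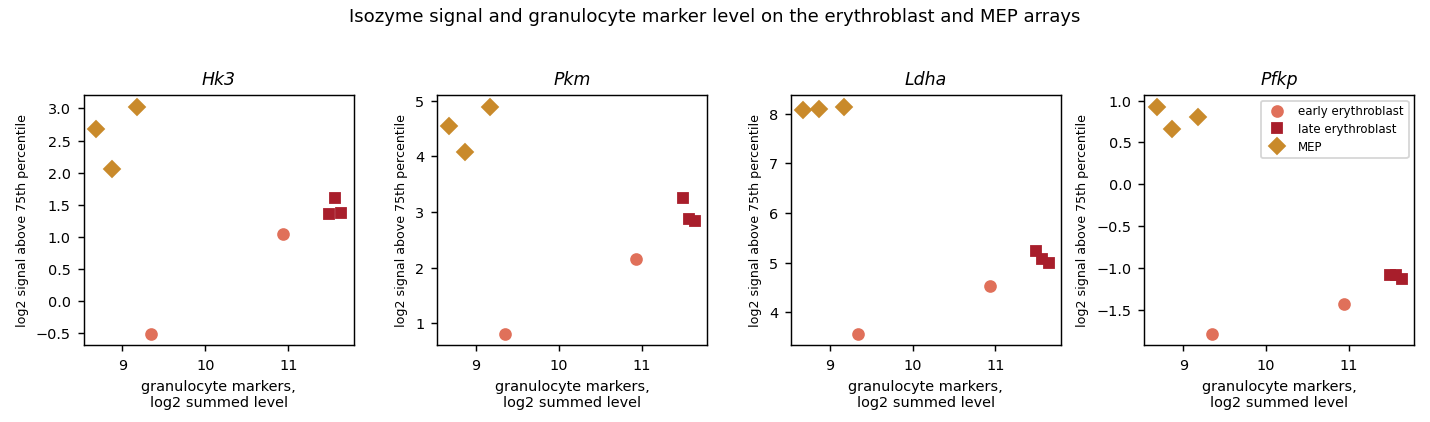
Log2 signal of Hk3, Pkm, Ldha and Pfkp (vertical axes) against the summed log2 level of 12 granulocyte markers (horizontal axes) on 2 early erythroblast, 3 late erythroblast and 3 MEP arrays. The first early erythroblast array, at 9.35 on the marker axis, has the lowest value in every panel.

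The other genes of the pathway were counted over whole lists. Of 16 other glycolytic enzymes, 14 were tested in early erythroblasts against MEP and 2 rose while 9 fell, with a median of -1.85, where 43.6% of all features were higher and 37.7% lower with a median of 0.23. The largest were falls of Pgam1, phosphoglycerate mutase, by 3.58, of Pgk1, phosphoglycerate kinase, by 3.57, of Gpi1, glucose phosphate isomerase, by 3.11, and of Ldhb, the other lactate dehydrogenase subunit, by 2.95. Between late and early erythroblasts 6 of 11 were higher and 2 lower (22.1% and 37.7% of all features). Aldoc, an aldolase, was at -1.81, Ldhb at 1.74 and Pgam1 at 1.73. The 2 early arrays were far apart, at 1.25 and 2.71 for Pgam1 and -2.60 and -0.72 for Ldhb. Ldhb was well above background on 1 of these 2. The part of granulocyte RNA in these differences was not tested. In late erythroblasts 2 were higher and 10 lower than in granulocytes out of 13 (38.7% and 43.8% of all features), among them Pgk1 at -4.25, Gpi1 at -3.57 and Ldhc, a testis-type subunit, at least 34.5-fold lower. In MEP 2 were higher and 9 lower than in GMP out of 14 (13.5% and 18.5% of all features), with Ldhb at -2.76 and Pgam1 at -2.35, and in GMP 8 were higher and 2 lower than in CMP out of 13 (9.53% and 8.48%). In granulocytes 3 were higher and 1 lower than in GMP out of 13 (27.7% and 38.9% of all features), the largest being Ldhc at 3.51.

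The pentose phosphate pathway makes NADPH from glucose 6-phosphate. Its 7 listed enzymes were all lower in MEP than in GMP, where 18.5% of all features were lower. The largest differences were those of Pgd at -2.24 and G6pdx at -1.43. In GMP 5 of the 7 were higher than in CMP and none lower (9.53% of all features higher), and in CMP 6 were higher than in LSK cells (23.3% of all features). Granulocytes had 3 higher than GMP, with G6pdx at 1.53, Pgd at 1.07 and Taldo1 at 0.97, and 2 lower (27.7% and 38.9% of all features). Late erythroblasts had 6 of 7 lower than granulocytes and none higher (43.8% of all features lower), with Pgd at -4.42 and G6pdx at -3.52. In early erythroblasts 4 were lower than in MEP (37.7% of all features), such as Pgls at -2.78, while Taldo1 was 1.08 higher.

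Of the 6 enzymes that make or remove fructose 2,6-bisphosphate or remove 2,3-bisphosphoglycerate, 2 were higher and 3 lower in early erythroblasts than in MEP (43.6% and 37.7% of all features). Pfkfb3 was 4.03 lower and Tigar at least 2.22-fold lower, while Pfkfb1 was 3.03 and Pfkfb2 1.38 higher. Both rises are relative to the percentile, and Bpgm's rise at this step was 0.29 with spike-in scaling. In granulocytes Pfkfb4 was 3.26 higher than in GMP, and 4 of the 6 were lower (38.9% of all features). The list of pyruvate dehydrogenase, its kinases and phosphatases and the mitochondrial pyruvate carrier had 12 of 13 genes tested in each comparison. In early erythroblasts 7 were lower than in MEP and 2 higher (37.7% and 43.6% of all features), led by Dlat at -3.29, Pdp2 at -3.25 and Pdha1 at -2.94. In late erythroblasts 7 were lower than in early ones and 1 higher, and Mpc1, Pdk1 and Pdp1 were lower at both steps (59.8% of features passed, 37.7% lower). In granulocytes 9 were lower than in GMP and 1 higher (38.9% and 27.7% of all features), led by Pdk1 at -2.71. Of the gluconeogenesis genes, Pcx, pyruvate carboxylase, was 5.37 higher in early erythroblasts than in MEP, and G6pc3, the widely expressed glucose 6-phosphatase, was 5.26 lower.

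Glucose and lactate transporters took different members on the branches. Slc2a4, the insulin-responsive glucose transporter of muscle and fat, was 10.71 ± 0.28 (SE) higher in early erythroblasts than in MEP (adjusted p = 2.1e-13), with a mean of 7.54 against -3.17, and 2 of 3 MEP arrays were well above background. It averaged 6.58 in late erythroblasts, 0.95 below early ones (adjusted p = 0.00751), and was 9.17 higher there than in granulocytes. Slc2a1, the widely expressed glucose transporter, was 3.75 lower in early erythroblasts than in MEP, with 1 of 2 arrays well above background. In the same comparison Slc16a10, an aromatic amino acid transporter of the lactate transporter family, was 4.63 higher, and Bsg, the chaperone of lactate transporters, was 3.69 higher. Of the 10 genes 6 were higher and 3 lower (43.6% and 37.7% of all features). These rises too are relative to the percentile, with no spike-in values given. In granulocytes 6 were higher and 4 lower than in GMP (27.7% and 38.9% of all features), with Slc2a3, a high-affinity glucose transporter, at 5.34, Slc16a3, a lactate exporter, at 4.62, and Slc2a6 at 2.79.

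**Figure D5:**
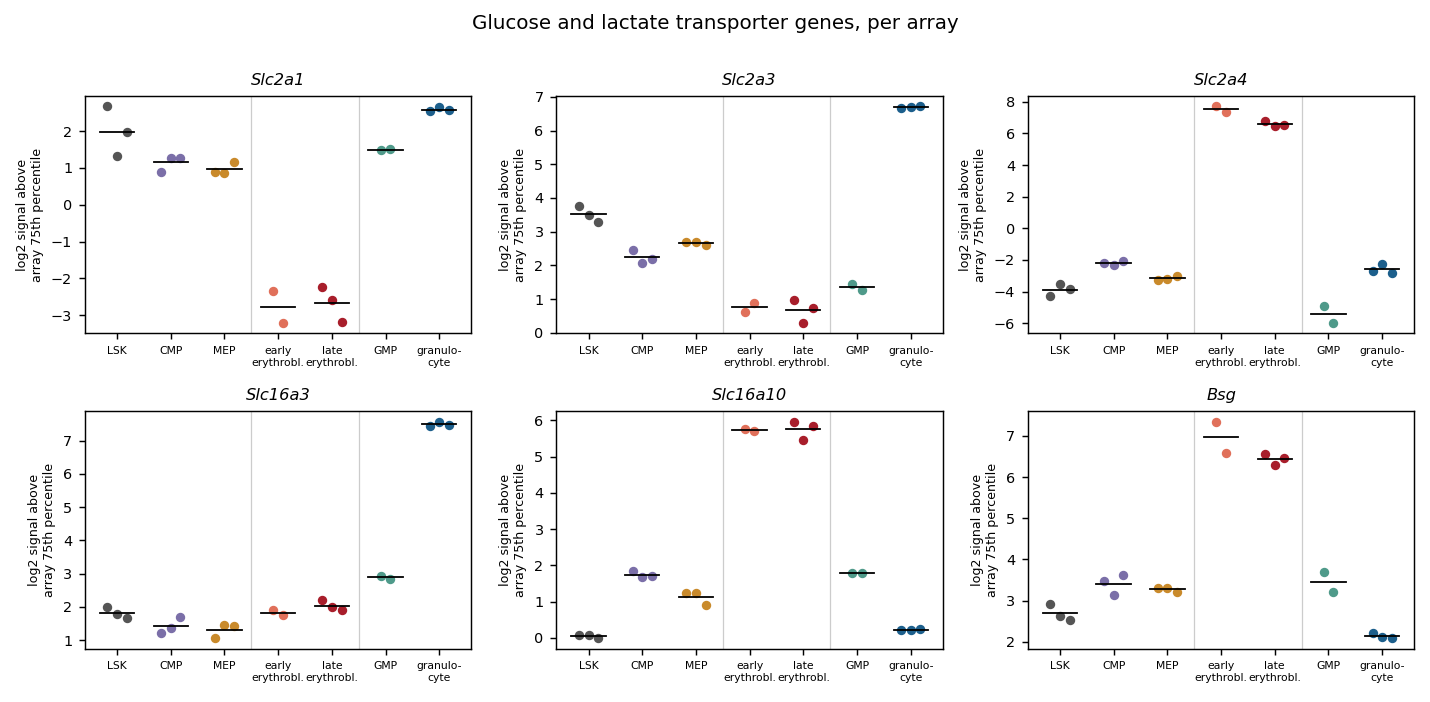
Log2 signal above the array's 75th percentile (vertical axis) of 6 transporter genes on every array, by cell type (horizontal axis), with bars at the means. Slc2a4 averages 7.54 and 6.58 in the 2 erythroblast stages, and Slc2a3 averages 6.70 in granulocytes, against 1.36 in GMP. Slc2a4 was not well above background on the GMP arrays.

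The named genes with the most similar pattern were taken as the 3 of 15017 with the highest Pearson r over the 7 cell type means, a description of 7 points that share the arrays and their scaling. For Bpgm they were Fam71f1, Guca1b and Trim56, with r of 0.999, 0.997 and 0.997. Fam71f1 was well above background on all 3 late erythroblast arrays but on neither early one, and on 1 of 3 in MEP. For Hk1 the closest were Golm1 (0.990), Gata1 (0.986) and Klf1 (0.986), the last 2 being erythroid transcription factors. Pklr came closest to Asb17 (0.993), Nags (0.989) and Sfrp4 (0.977). Asb17 and Nags were not well above background on any LSK, late erythroblast, GMP or granulocyte array. The same held for Galnt3 and Rab27a, named next, on both early erythroblast arrays. Pkm was most like Rab27a, Hsd17b11 and Lpgat1, Hk3 most like Galnt3, Fcgr2b and Xbp1, and Hk2 most like Tm6sf1, Adam15 and Vav1, all with r of 0.994 or more. Pfkm had the lowest of these values apart from Pklr, with Caprin2 (0.991), Nudt12 (0.987) and Gramd4 (0.979). Between members, the highest r was 0.978, between Hk2 and Ldha, and the lowest was -0.925, between Hk1 and Pkm.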

How the data were processed

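Total RNA of 7 sorted populations was measured on 19 arrays, 1 per sample. The intensity values deposited came, per the file headers, from Agilent Feature Extraction 11.5.1.1, which subtracts background and flags spots, and the submitters' processing notes name the same tool. The labels name Cy5 and the files hold 1 channel named green, so the values were treated as single-colour. The authors' series values were the background-subtracted intensity, used only as an alternative.

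Each array's 75th percentile was subtracted from the log2 processed signal. Control spots and outlier flags were left out and spots of a probe averaged. Of 28685 probes with RefSeq accessions, 27229 were named through a RefSeq list of GRCm38.p6, giving 38391 features. Comparisons were fitted on all features with limma (version 3.58.1, R 4.3.3), 1 mean per cell type and all 19 arrays in the fit, with eBayes and Benjamini-Hochberg adjustment at 0.05. A feature was tested where every array of at least 1 compared group was well above background, and passed only if the higher group was. Groups with no array above background give "at least" values, set against the higher of the probe's own signal and the array's lowest signal well above background. Isozyme pairs were fitted the same way after subtracting the second gene. Members and lists were chosen with earlier results of these data known. Named were the 10 members, and up to 4 genes per list and comparison with the largest differences; the interaction, and the printing of Pklr's promoters, were chosen after values were seen. The number of arrays limits the precision. Alternatives were normalization, scaling set, background correction, probe, filter, slide, replicate number, samples in the fit and each array left out. Late minus early erythroblast data were simulated for 19113 features, with 100 changed by each size. Of the changes, 53% of log2 1 and 95% of log2 2 were recovered. The changed features were well above background on every array and the noise was independent between arrays. The rates therefore do not describe dimmer genes such as Hk2 and Pklr, or noise shared within a slide.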

Additional observations from a re-analysis of the deposited data

Results flagged for a closer look

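The change from MEP to late erythroblasts was set against the change from GMP to granulocytes in an interaction chosen after the data were seen, which 78.1% of 15021 features passed, with a median of 0.22. For 6 of the 8 genes tested the 2 changes differed (limma adjusted p). Bpgm differed by 6.51, with 7.14 on the erythroid side and 0.63 on the granulocytic side (adjusted p = 3.85e-13), and by 1.43 with spike-in scaling, which did not pass. Ldha differed by -2.80, with -3.00 and -0.20 (adjusted p = 1.22e-07). Pkm differed by -1.94, with -1.52 and 0.42 (adjusted p = 0.00129), and Pfkl by -1.82, with -3.53 and -1.71 (adjusted p = 0.00142). Hk3 differed by -1.37, with -1.15 and 0.23 (adjusted p = 0.0226), and by -1.56 with slide as a block, which did not pass. Pfkp differed by -1.30 (adjusted p = 2.9e-05), but by 1.74 with its second probe and 0.22 with the mean of both. Hk1 and Pfkm did not pass, with -0.18 and -0.00 (adjusted p = 0.569 and 0.997). Hk2 and Pklr were not tested. Hk2 was well above background on 1 of 3 late erythroblast arrays, and Pklr on no GMP or granulocyte array. No slide held both GMP and granulocytes. Spike-in scaling moved the median of all features to -4.86.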

How the results depend on the processing

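Of the 10 members, the number passing was within 1.5 times the value given under most settings. CMP minus LSK gave 1 with quantile normalization, spike-in scaling and the authors' values. Spike-in scaling also gave 2 for GMP minus CMP, 4 for MEP minus GMP, 4 for late minus early erythroblasts and 1 for granulocytes minus GMP. Normexp, run on the median signal, gave 2 for MEP minus CMP, and fitting the compared groups alone gave 4 for late minus early erythroblasts. Single genes turned with spike-in scaling: Hk1 to -3.03 (early erythroblast minus MEP) and -3.18 (late erythroblast minus granulocyte), Pfkm to -2.34, Pklr to -1.05 and Pfkp to -0.54. Normexp took Hk1 in early erythroblasts minus MEP to -0.031. The second Pfkp probe gave 0.34 and 1.57, and interactions of 1.74, or 0.22 with the mean of both probes. The cause of these shifts was not tested.

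Isozyme pairs, in early erythroblasts minus MEP: Pfkp minus Pfkl was 0.78 with normexp, 1.86 with the mean of probes and 3.24 with the second probe, each with an interval above 0. In late minus early erythroblasts, Pfkm minus Pfkl was -0.55 with quantile normalization and -1.12 with the compared groups alone, Pfkp minus Pfkl was 0.30 and 1.14 with normexp and the compared groups alone, and Pklr minus Pkm was -1.20 with slide as a block and -1.34 with the compared groups alone, all with intervals that held 0. In granulocytes minus GMP, Hk2 minus Hk1 was -0.022 (quantile) and -0.029 (slide), Hk3 minus Hk1 was 0.017 (quantile), 0.23 (mean of probes), 0.46 (second probe) and 0.13 (slide), Pfkp minus Pfkl was 0.63 (second probe) and 0.74 (slide), and Pklr minus Pkm was -0.81 with normexp. In late erythroblasts minus granulocytes, Pfkp minus Pfkl was 1.01 with the mean of probes, 3.37 with the second probe and -1.07 with slide as a block.

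The replicate numbers did not pair the samples, since same-numbered arrays' deviations had a median r of -0.02 (52 pairs, -0.52 to 0.48), against 0.27 for arrays of 1 slide. With the replicate block, members passing were 4, 0, 6, 7, 10, 7, 4 and 10 in the order CMP minus LSK, MEP minus CMP, GMP minus CMP, MEP minus GMP, early erythroblast minus MEP, late minus early erythroblast, granulocyte minus GMP and late erythroblast minus granulocyte, and Pklr minus Pkm in granulocytes minus GMP was 0.018. Hk2 in GMP minus CMP was the member that no longer passed.

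Leaving out each array in turn gave 0 to 2 members for MEP minus CMP and 3 to 8 for late minus early erythroblasts, the 3 without the first early erythroblast array. The pairs ranged over 0.69 to 2.84 (Hk3 minus Hk1), 0.57 to 1.71 (Pfkp minus Pfkl), -1.41 to -0.84 (Pfkm minus Pfkl) and -2.48 to -0.21 (Pklr minus Pkm) in late minus early erythroblasts. They ranged over -0.085 to 1.06 (Pfkp minus Pfkl) and 0.77 to 3.04 (Pklr minus Pkm) in early erythroblasts minus MEP, and over -0.18 to 0.24 (Hk2 minus Hk1), -0.11 to 0.089 (Hk3 minus Hk1) and 0.91 to 1.31 (Pfkp minus Pfkl) in granulocytes minus GMP. Over all features, 4.52% passed in MEP minus CMP, against 8.68% with normexp, 1.27% with the authors' values, 0.136% with spike-in scaling, 1.68% with no filter, 0 with the compared groups alone, and 1.25% to 2.29% without CMP or MEP replicate 2 or 3, 1 at a time. Spike-in scaling gave 6.88% for CMP minus LSK, 7.31% for GMP minus CMP, 13.6% for MEP minus GMP and 27.4% for granulocytes minus GMP. Low signal on the erythroblast arrays limits Hk2 and Pklr. It also limits Pfkl and Pfkp and the pairs that hold them. Pfkl had 33.2 to 45.2 intensity units in early and 13.5 to 29.3 in late erythroblasts, and Pfkp 18.6 to 30.2 and 23.6 to 26.4. Both were still well above background on these arrays.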
